A study of Homo sapiens with 6 samples.

Results

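UHMK1, the U2AF homology motif kinase 1, was examined together with the proteins that share its U2AF homology motif and with its substrates SF1 and STMN1 after transfection of an H19 siRNA. The list holds 10 genes by name. Of these, 9 were found by gene symbol among the 39261 named probe sets of the arrays, and U2AF1 was not analysed here. UHMK1 itself was picked by the study on these same arrays and on those of another H19 siRNA, siH19-1, for its fall with both. Its difference is therefore given as a description without a test. The other members were taken for their protein motif or as substrates, but with earlier results of these data known. The same holds for the further gene lists below, so their counts beside all named probe sets are descriptions. All 6 arrays came from MIA-PaCa2, an established cell line of pancreatic ductal adenocarcinoma (PDAC). In 3 arrays the cells had received AllStars Negative Control siRNA, called NC, and in 3 arrays the H19 siRNA siH19-2, both by lipofection and without any further treatment named in the labels. RNA was taken 24 h after transfection, and the dose is given as 50 nM in the methods but as 20 µg in the sample labels. These arrays represent only 1 H19 siRNA construct in 1 cell line. Effects of the lower H19 level and effects of this siRNA on other transcripts therefore cannot be told apart in them. Outside these arrays, the paper reported lower UHMK1 mRNA by RT-qPCR with both constructs in BxPc-3, AsPC-1 and MIA-PaCa2. It also reported lower UHMK1 protein after H19 knockdown, by Western blot and by immunohistochemistry in xenografts of MIA-PaCa2.

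A U2AF homology motif is a variant of the RNA recognition motif that binds a short peptide around a tryptophan of a partner protein rather than RNA. The name comes from the U2AF dimer, in which the large subunit U2AF2 binds the polypyrimidine tract and the small subunit U2AF1 the AG at the 3′ end of an intron. SF1 binds the branch point and contacts the motif of U2AF2 through such a peptide, and the U2 snRNP subunit SF3B1 later takes its place. UHMK1 joins a kinase domain to this motif, phosphorylates SF1 and the cell cycle inhibitor p27, and was first found as a kinase that interacts with stathmin, the product of STMN1.

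The deposited values are log2 signals, normalized between arrays, with 1 value for each gene and array, and signals of different genes do not measure their relative amounts. Each array had the same median log2 signal, 6.16, and its sorted values differed from those of NC replicate 2 by at most 0.0026. This equality follows from the normalization and is no check of array quality. Arrays correlated at 0.993 to 0.995 within a group and at 0.991 to 0.993 between the groups, and siH19-2 replicate 3 lay apart from the other siH19-2 arrays on principal component 2, at 21.1 against -16.6 and -11.1. H19, the transcript targeted by the siRNA, had log2 signals of 7.36, 7.43 and 7.42 in NC and of 7.10, 7.09 and 7.12 in siH19-2. It was lower by 0.30 on the log2 scale (a difference of -0.30, standard error 0.036, adjusted p = 0.012 from limma), at 81.3% of the NC signal. Without any one array, the adjusted p was 0.036 to 0.067. It stayed under 0.05 only where NC replicate 1 or siH19-2 replicate 3 was the array left out. The line's markers KRT8, KRT18 and VIM had NC means of 9.74, 9.43 and 13.09 and siH19-2 means of 9.63, 9.33 and 13.10, and none of them passed the test. None of 11 markers of leukocytes, endothelium, acinar and islet cells passed the test, and their group means lay between 4.53 and 7.96 in NC and between 4.59 and 8.02 in siH19-2. With 3 arrays against 3, an exact permutation test cannot give a p below 0.1, and it is not stated for the arrays whether they came from separate cultures. The p-values thus measure the spread between these arrays, which may be technical.

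UHMK1 fell in siH19-2, and none of the other 8 measured members passed the test in either direction. The log2 signal of UHMK1 (gene ID 127933) was 10.32, 10.33 and 10.35 in the NC arrays and 9.08, 9.10 and 9.08 in the siH19-2 arrays. The groups were separated by at least 1.22 on the log2 scale, whereas the arrays of either group differed by hundredths. Mean and SD over 3 arrays were 10.33 ± 0.014 for NC, while siH19-2 gave 9.09 ± 0.011. The difference of -1.25 corresponds to 42.2% of the NC signal. The study's volcano plots used a log2 fold change threshold of 1 on these same arrays, and UHMK1 was picked from them. That its difference lies beyond this threshold was therefore fixed by the choice and is no further result. The next lowest member, U2AF2, had a difference of -0.05.

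**Figure D1:**
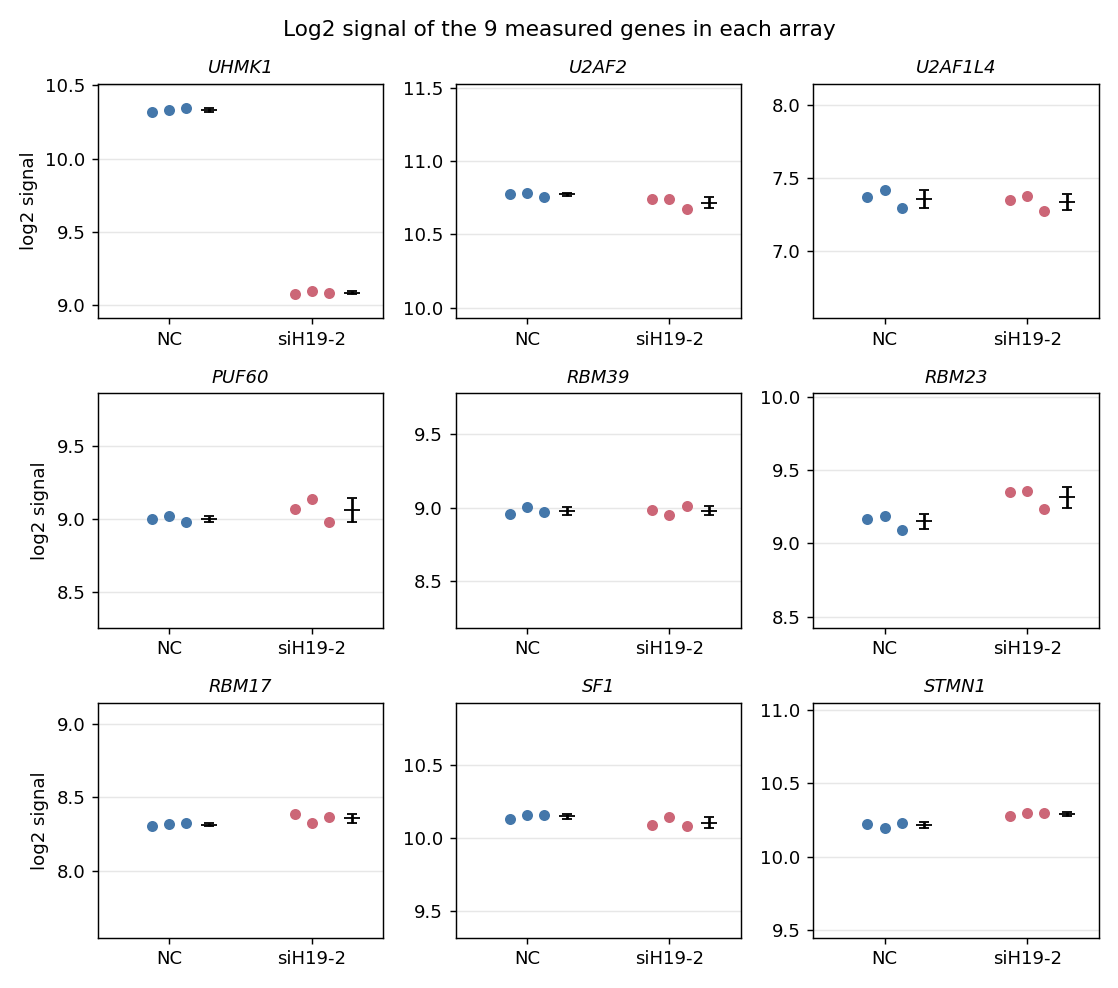
Log2 signal (vertical axis, the same span in every panel) of the 9 measured genes in each of 3 NC arrays (blue) and 3 siH19-2 arrays (red), with the mean and SD in black beside the points. The arrays of UHMK1 are separated by at least 1.22, and in the other panels the points of both groups lie close together.

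Among the partners of the 3′ splice site, U2AF2 (gene ID 11338) had log2 signals of 10.77, 10.78 and 10.76 in NC and of 10.74, 10.74 and 10.67 in siH19-2. All its siH19-2 arrays were below all its NC arrays, by a small margin, and the lowest was siH19-2 replicate 3. The difference was -0.05 with a 95% confidence interval from -0.14 to 0.03 (adjusted p = 0.46 from limma). SF1 (gene ID 7536), the branch point protein that UHMK1 phosphorylates, had 10.13, 10.15 and 10.16 in NC and 10.09, 10.15 and 10.08 in siH19-2. Its groups overlapped, and the difference was -0.04 (95% confidence interval -0.13 to 0.04, adjusted p = 0.56 from limma). U2AF1L4 (gene ID 199746), a paralogue of the small U2AF subunit, had 7.37, 7.42 and 7.29 in NC and 7.35, 7.38 and 7.27 in siH19-2, a difference of -0.02 (95% confidence interval -0.15 to 0.10, adjusted p = 0.84 from limma). The 3 arrays of each group covered nearly the same range for this gene.

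None of the splicing regulators that carry a U2AF homology motif, PUF60, RBM17, RBM39 and RBM23, passed the test, and their differences lay between 0.0039 and 0.16. PUF60 (gene ID 22827), a poly(U)-binding factor that acts beside U2AF2, had log2 signals of 8.999, 9.023 and 8.982 in NC and of 9.066, 9.137 and 8.977 in siH19-2. The first and second siH19-2 arrays were above all NC arrays and the third just below them. RBM17 (gene ID 84991), which acts in alternative 3′ splice site choice and is also known as SPF45, had 8.30, 8.31 and 8.32 in NC and 8.38, 8.32 and 8.37 in siH19-2. The differences were 0.06 for PUF60 (95% confidence interval -0.06 to 0.18) and 0.04 for RBM17 (95% confidence interval -0.04 to 0.13), with adjusted p of 0.58 and 0.53 from limma.

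RBM39 (gene ID 9584) and RBM23 (gene ID 55147) are close paralogues that bind RNA and act in splicing. RBM39 had log2 signals of 8.95, 9.01 and 8.97 in NC and of 8.98, 8.95 and 9.01 in siH19-2. Its groups covered the same range, and the difference was 0.0039 with a 95% confidence interval from -0.08 to 0.09 (adjusted p = 0.97 from limma). RBM23 had 9.17, 9.19 and 9.09 in NC and 9.35, 9.36 and 9.23 in siH19-2. Every siH19-2 array of RBM23 was above every NC array, and the margin was narrowest for siH19-2 replicate 3. Its difference of 0.16 (standard error 0.051) was the largest of the 8 members in size, with an unadjusted p of 0.019 and an adjusted p of 0.15 from limma. The adjusted p of RBM23 was 0.10 without siH19-2 replicate 3, at a difference of 0.20. Whether RBM23 and RBM39 differed from each other in their response was not tested.

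STMN1 (gene ID 3925) encodes stathmin, which binds tubulin dimers and promotes the shortening of microtubules. Its log2 signals were 10.22, 10.20 and 10.23 in NC and 10.28, 10.30 and 10.30 in siH19-2. All siH19-2 arrays were above all NC arrays, with a difference of 0.07 (standard error 0.032, 95% confidence interval -0.0042 to 0.15, adjusted p = 0.27 from limma). The SD over 3 arrays was 0.018 for NC and 0.013 for siH19-2.

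**Figure D2:**
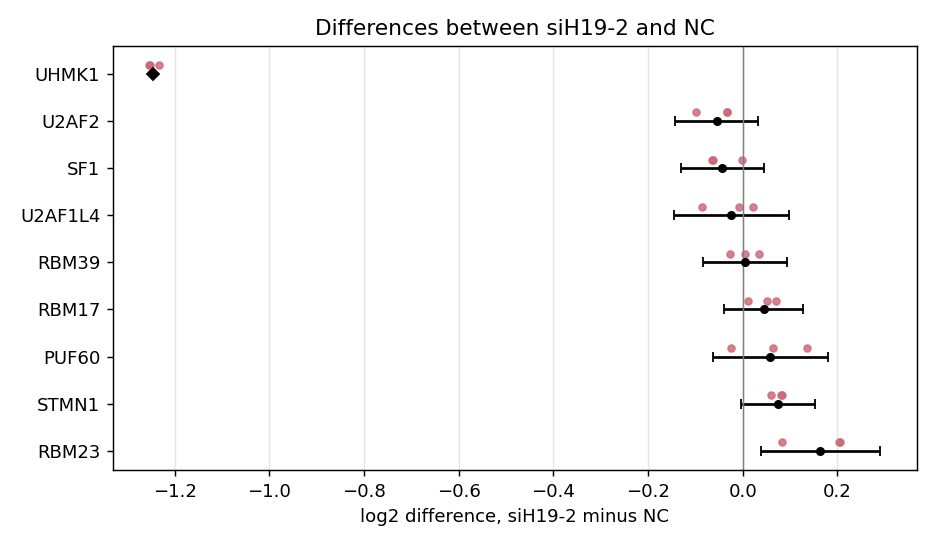
Log2 difference siH19-2 minus NC (horizontal axis) of the 9 measured genes. Black circles with bars are the limma estimates with 95% confidence intervals, the black diamond is UHMK1, which is given without an interval, and red points are the single siH19-2 arrays minus the NC mean. UHMK1 lies at -1.25, and the intervals of the other 8 lie between -0.15 and 0.29.

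Of the 8 members other than UHMK1, 0 were called lower and 0 higher at an adjusted p under 0.05 from limma. Over all 39261 named probe sets, 2.63% were called lower and 2.64% higher, and 0 of 8 members is close to that background. At an unadjusted p under 0.05 there was 1 member, RBM23, against 7963 of all named probe sets. The groups did not overlap in 4 of the 9 members, 2 lower (UHMK1, chosen for its fall, and U2AF2) and 2 higher (RBM23 and STMN1). Every siH19-2 array lay below every NC array in 9.98% of all named probe sets and above in 18.3%. The median difference of the 8 members was 0.02, beside 0.02 over all named probe sets, with 3 members negative and 5 positive. The 95% confidence intervals of 7 of the 8 included 0, and their outermost bounds were -0.15 for U2AF1L4 and 0.29 for RBM23, or 90.4% and 122% of the NC signal. A p above the threshold does not show that a transcript was unaffected, but a fall of the size seen for UHMK1 lay outside each of these intervals. In siH19-2 replicate 3, the array that stood apart on principal component 2, 5 of the 9 members had the lowest signal of their siH19-2 arrays. The share of all named probe sets for which this holds was not counted, and an array effect on the members was not tested.

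The promoter of RBM23 is shown because it had the largest difference among the members other than UHMK1. The windows used are the 250 bases before the first listed transcription start in RefSeq (GRCh38.p14), read 5′ to 3′ on the strand of the gene. In 5 of the 7 members whose windows were read, this start is the outermost start of the annotated gene. In UHMK1 it lies 631 bases and in STMN1 461 bases inside the gene, so that their windows are within the annotated genes and their sequences are not shown. The RBM23 window lies at chr14:22919150-22919399 on the minus strand. Capitals mark the GC box GGGCGG and the CCAAT box CCAAT on either strand.
RBM23: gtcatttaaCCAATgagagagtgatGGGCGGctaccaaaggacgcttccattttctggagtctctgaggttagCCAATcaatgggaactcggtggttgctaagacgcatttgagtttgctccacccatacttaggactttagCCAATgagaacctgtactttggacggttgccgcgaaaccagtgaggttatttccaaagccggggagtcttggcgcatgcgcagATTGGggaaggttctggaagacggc

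The UHMK1 window held 1 GC box and 0 CCAAT boxes, and the RBM23 window 1 GC box and 4 CCAAT boxes. Of the 7 members whose windows were read, 5 held a GC box and 3 a CCAAT box, beside 42.3% and 33.0% of all 27305 windows of this length. RBM39 had no window, and windows on chromosome 8, where PUF60 lies, were not read for the members. UHMK1 had the lowest share of G and C among the 7 windows, 48.8% with 8 CpG dinucleotides, and STMN1 the highest, 73.2% with 25. Both of these windows lie inside the annotated genes and not before the outermost start, and both are included in the counts. A match to such letters is a description of the window and no evidence of binding.

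Further genes with a U2AF homology motif were measured for ZRSR2, HTATSF1 and LEMD3, while U2AF1L5 and ZRSR1, also named ZRSR2P1, were not analysed here. LEMD3, an inner nuclear membrane protein also known as MAN1, had log2 signals of 7.85, 7.74 and 7.95 in NC and of 7.43, 7.37 and 7.53 in siH19-2. All siH19-2 arrays of LEMD3 were below all NC arrays, and it fell by 0.40 (a difference of -0.40, standard error 0.071, adjusted p = 0.036 from limma). Without any one array, the adjusted p of LEMD3 was 0.060 to 0.13. HTATSF1, a U2 snRNP-associated factor, had a difference of 0.11 (adjusted p = 0.21 from limma), and ZRSR2, a 3′ splice site factor of the minor spliceosome, one of 0.08 (adjusted p = 0.41 from limma). Thus 1 of these 3 genes was lower and none higher, beside 2.63% and 2.64% of all named probe sets.

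Among 22 genes of the U2 snRNP or of 3′ splice site recognition with U2AF, 2 rose, 2 fell and 18 did not pass. Their median difference was 0.04, and over all named probe sets 2.64% rose and 2.63% fell. Both listed genes that rose encode subunits of the SF3b complex, which holds the branch point. SF3B2 had log2 signals of 10.17, 10.14 and 10.14 in NC and of 10.57, 10.57 and 10.55 in siH19-2, and it rose by 0.41 (standard error 0.032, adjusted p = 0.0033 from limma). PHF5A rose by 0.31 (standard error 0.034 and adjusted p = 0.0089 by limma), from a mean of 8.27 (SD 0.03, n = 3) to one of 8.57 (SD 0.01, n = 3). The groups of both genes were far apart relative to their spread, and the call of SF3B2 held without any one array. That of PHF5A was lost without NC replicate 2 (0.055) or NC replicate 3 (0.051).

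The other SF3b subunits had differences of 0.15 for SF3B1, 0.07 for SF3B3, -0.13 for SF3B4, -0.01 for SF3B5 and 0.08 for SF3B6, none of which passed the test. SF3B1, the subunit whose peptides bind U2AF homology motifs, had 11.26, 11.27 and 11.32 in NC and 11.40, 11.35 and 11.55 in siH19-2 (adjusted p = 0.24 from limma). All its siH19-2 arrays were above all its NC arrays. The RNA helicase DHX15, which acts in the release of spliceosomes, fell by 0.28 (a difference of -0.28, standard error 0.038, adjusted p = 0.016 by limma), and the U2-associated protein CHERP by 0.25 (a difference of -0.25, standard error 0.049, adjusted p = 0.044 from limma). The call of DHX15 was kept only without siH19-2 replicate 3 (0.026) and was otherwise lost, at 0.059 to 0.081, and that of CHERP was lost without any one array, at 0.052 to 0.16.

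**Figure D3:**
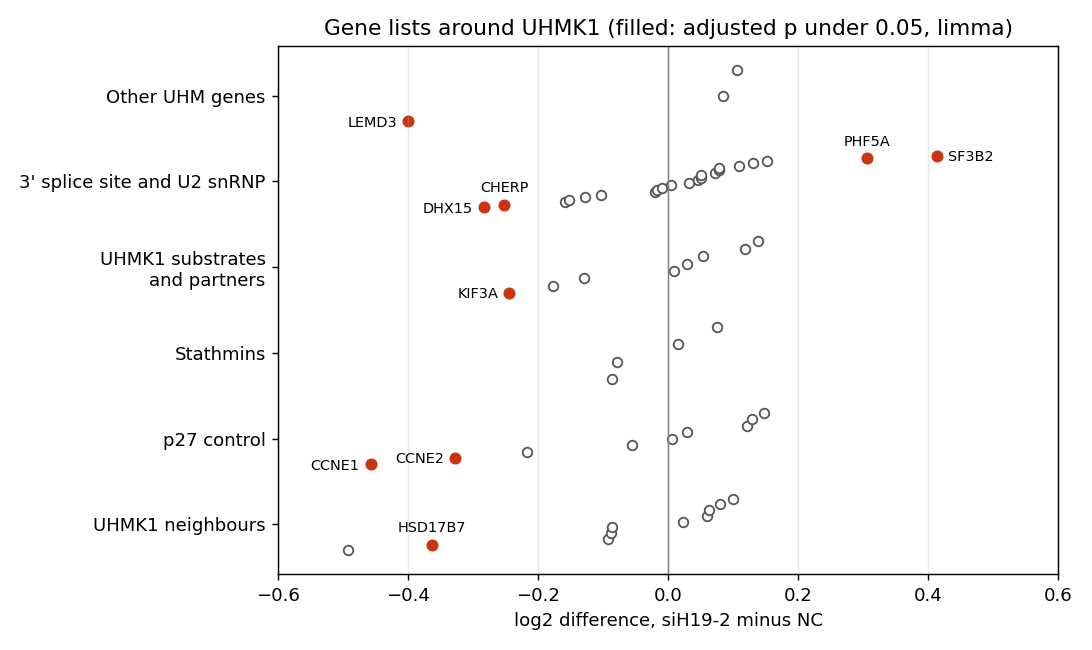
Log2 difference siH19-2 minus NC (horizontal axis) of the measured genes in 6 lists around UHMK1 (rows, each point a gene, points spread vertically only for view). Filled red points passed an adjusted p of 0.05 from limma and are named; the differences of these 9 genes lie between -0.46 for CCNE1 and 0.41 for SF3B2, all smaller in size than the -1.25 of UHMK1.

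Other proteins that UHMK1 phosphorylates or is found with gave 1 lower, 0 higher and 7 not passing of 8 genes. Their median difference was 0.02. The shares called over all named probe sets were 2.63% lower and 2.64% higher. CDKN1B, which encodes p27, had log2 signals of 9.05, 9.04 and 9.12 in NC and of 9.08, 9.01 and 9.20 in siH19-2. The groups of CDKN1B overlapped, and the difference was 0.03 (95% confidence interval -0.11 to 0.17, adjusted p = 0.83 from limma). PAM, a secretory granule enzyme whose tail binds UHMK1, had a difference of 0.14 (adjusted p = 0.15 from limma). KIF3A, a kinesin motor subunit, fell by 0.24 (a difference of -0.24, standard error 0.046, adjusted p = 0.043 from limma). Its call was kept without siH19-2 replicate 3 (0.040) and lost without any other array, at 0.12 to 0.15.

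Genes that control p27 or act opposite to it, listed with CDKN1B itself, gave 2 lower, 0 higher and 7 not passing of 9. CDKN1B was thus counted in this list and in the list before. All named probe sets gave 2.63% lower and 2.64% higher. The 9 genes had a median difference of 0.01, and both lower genes among them encode E-type cyclins, the partners of CDK2. CCNE1 had log2 signals of 9.011, 9.002 and 9.023 in NC and of 8.508, 8.525 and 8.629 in siH19-2. Its groups did not overlap, and it fell by 0.46 (a difference of -0.46, standard error 0.044, adjusted p = 0.0057 from limma), a call that held without any one array. CCNE2 had 8.036, 8.004 and 8.082 in NC and 7.713, 7.706 and 7.718 in siH19-2. The siH19-2 arrays of CCNE2 were almost equal, and it fell by 0.33 (a difference of -0.33, standard error 0.036, adjusted p = 0.0087 from limma, and 0.055 without NC replicate 1). CDK2 had a difference of 0.15 (adjusted p = 0.089 from limma). SKP2 and CKS1B, which mark p27 for degradation, had differences of 0.12 and -0.22 (adjusted p of 0.14 and 0.12 from limma). The protein level and phosphorylation of p27 were not measured on the arrays.

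Of the 4 stathmin family genes none passed the test in either direction. STMN2 and STMN3 had differences of -0.09 and -0.08 and STMN4 one of 0.01, beside 0.07 for STMN1 (adjusted p of 0.27 or more from limma). Copies of members were also on the arrays, as the pseudogenes STMN1P1, STMN1P2, RBM17P2 and RBM17P4, whose probes can bind RNA of the parent gene. Their differences were 0.0021, -0.07, -0.77 and -0.14, and none passed. RBM17P2 had dim and scattered values, 5.560, 4.466 and 4.637 in NC and 3.417, 4.400 and 4.527 in siH19-2, and its groups overlapped (adjusted p = 0.35 from limma).

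Of the genes next to UHMK1 on chromosome 1, 5 measured on each side in RefSeq order, 1 fell, HSD17B7, and 9 did not pass. On one side these were MIR4654, MIR556, SPATA46, C1orf226 and SH2D1B, with differences of 0.10, -0.49, 0.06, -0.09 and -0.09. On the other side LOC102724358, UAP1, DDR2 and CCDC190 had differences of 0.06, -0.09, 0.08 and 0.02. MIR556 had scattered values at a low signal, 3.65, 3.14 and 3.05 in NC and 3.08, 2.41 and 2.88 in siH19-2, with overlapping groups. HSD17B7, an enzyme of cholesterol synthesis, fell by 0.36 (a difference of -0.36, standard error 0.056, adjusted p = 0.023 from limma). Its call was kept without siH19-2 replicate 1 (0.036) and lost without any other array, at 0.067 to 0.10. Among all named probe sets, 2.63% were called lower.

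The transcripts whose values over the 6 arrays were most like those of UHMK1 were ANXA5, MSMO1, PGK1P1, SLC20A1 and PGK1P2. Likeness was the root mean square distance between the log2 values of a transcript and of UHMK1, each minus its own NC mean. ANXA5, which encodes a phospholipid-binding annexin, was at 0.032 from UHMK1, with log2 signals of 10.36, 10.34 and 10.33 in NC and of 9.14, 9.16 and 9.10 in siH19-2. MSMO1, a methylsterol monooxygenase of cholesterol synthesis, was at 0.071, PGK1P1 at 0.080, the phosphate transporter SLC20A1 at 0.083 and PGK1P2 at 0.093. This order describes 6 arrays in 2 groups, and the differences of these 5 transcripts were chosen to be near that of UHMK1.

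**Figure D4:**
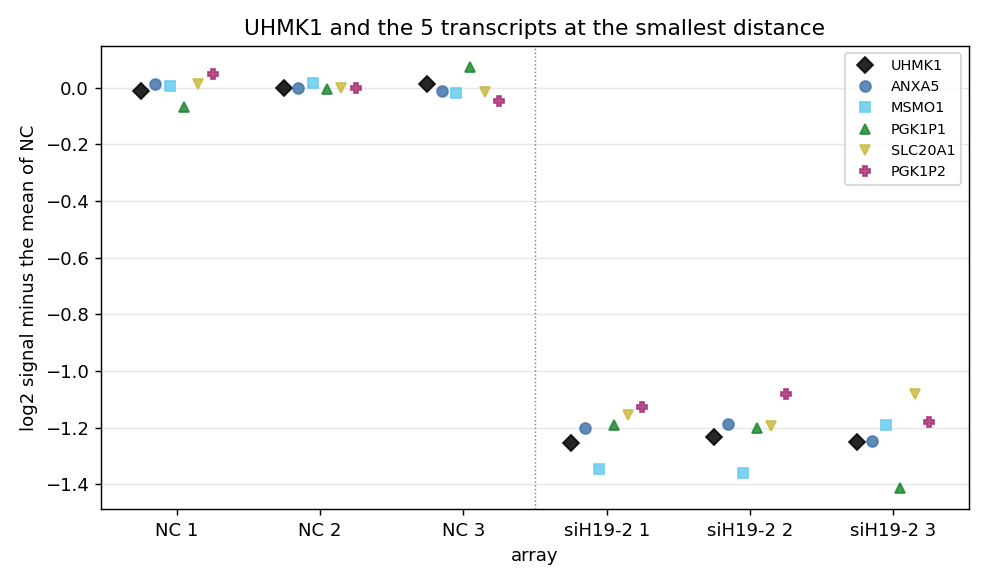
Log2 signal minus the mean of NC (vertical axis) in each of the 6 arrays (horizontal axis) for UHMK1 and the 5 transcripts at the smallest distance to it, with symbols moved sideways within an array for view. All 6 transcripts lie near 0 in the NC arrays and below -1 in the siH19-2 arrays, and over the 6 arrays ANXA5 is at the smallest distance from UHMK1, 0.032.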

How the data were processed

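RNA of MIA-PaCa2 cells was hybridized to Clariom D arrays, 3 NC and 3 siH19-2, grouped by the sample titles. The authors deposited normalized log2 signals, 1 per probe set and array, for 39334 probe sets. The methods name limma and JMP software for the array data, and neither the background correction nor a genome build was found in the sources used here. A second table deposited by the authors holds log2 group means and their difference, standardized means, a test statistic and a significance index as scores, p-values with adjusted p-values, and their −log10. Only its gene names were used, for 39261 probe sets.

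From the log2 signals, siH19-2 minus NC was fitted with limma 3.58.1 in R 4.3.3 (lmFit, eBayes, two-sided), with Benjamini-Hochberg adjustment over all named probe sets and no filter on dim ones. The number of arrays limits the precision. The fit was tested on simulated data. Named genes were all measured members, H19, up to 5 called genes of each list or otherwise those with the smallest p, copies, neighbours and the 5 nearest transcripts. Outside this rule, HTATSF1, ZRSR2, the other SF3b subunits, PAM, CDKN1B, CDK2, SKP2, CKS1B, STMN4 and the line's markers were named for their roles after their values were seen. Another marker of the line is not reported here. Members and lists were chosen with earlier results of these data known. Alternatives were cyclic loess, keeping the brighter probe sets alone, a trended robust prior, the methods' t-test, Bonferroni-Holm, a replicate block and leaving out each array. Promoter windows came from RefSeq.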

Additional observations from a re-analysis of the deposited data

How the results depend on the processing

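Of the 8 members other than UHMK1, 0 were called lower and 0 higher under every alternative run, the fit with the replicate number as a block included. Some values came near the threshold. The adjusted p of RBM23 from limma was 0.052 among the brighter probe sets and 0.082 with the trended robust prior. For STMN1 it was 0.063 from the methods' t-test. The difference of UHMK1 was -1.26 after cyclic loess and -1.25 to -1.24 without any one array. RBM39 and U2AF1L4, both near 0, changed sign with no call. RBM39 was at -0.014 after cyclic loess and at -0.011 to 0.020 without any one array, and U2AF1L4 at -0.057 to 0.0068 without any one array. The members whose groups did not overlap numbered 2 or 3 in each direction. H19 kept its difference of -0.30 but not its call with Bonferroni-Holm (adjusted p = 1.00) and with the replicate block (adjusted p = 0.091). Without any one array its difference was -0.32 to -0.28, and the call was lost when NC replicate 2 (adjusted p = 0.067 from limma), NC replicate 3 (0.063), siH19-2 replicate 1 (0.059) or siH19-2 replicate 2 (0.053) was left out. Deviations of same-numbered arrays correlated at 0.005 to 0.010, and those of differently numbered arrays at -0.021 to 0.013. These values gave no sign of a pairing by replicate number, but they cannot show whether arrays were prepared together. Over all named probe sets, 1032 were called lower and 1035 higher. These counts were 1525 and 1924 with an intensity trend and robust prior, 1730 and 2328 in the brighter part of the probe sets, 37 and 6 with Bonferroni-Holm and 62 and 12 with the replicate block. Without any one array they were 292 to 648 and 172 to 430.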
